A study of Mus musculus with 6 samples.

Results

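Extracellular ATP, ADP, UDP and adenosine signal through purinergic receptors. The 10 genes described here are a part of the mouse P2X, P2Y and adenosine receptors and surface nucleotidases, namely P2rx4, P2rx7, P2ry1, P2ry2, P2ry6, P2ry14, Adora1, Adora2a, Entpd1 and Nt5e. They were taken by gene name from the deposited table, where all 10 were found among 41386 genes. The names defined the set, which was chosen with earlier results of these data known. P2X receptors are cation channels opened by ATP, and P2Y receptors are G protein-coupled receptors for ATP, ADP, UTP, UDP or UDP-sugars. Entpd1 (CD39) converts extracellular ATP and ADP to AMP, Nt5e (CD73) converts AMP to adenosine, and adenosine acts on A1 and A2a receptors among others. In brain, injured cells release nucleotides, microglia sense them through several P2X and P2Y receptors, and A1 receptors on neurons dampen transmitter release.

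RNA-seq was performed on hippocampi of C57BL/6 mice (C57BL/6J in the study's methods) that were 56 days old. In the ischemia/reperfusion (I/R) group a filament closed the middle cerebral artery for 1.5 h, 24 h of reperfusion followed, and the sham group had the surgery without insertion of the filament. Each group had 3 libraries, and per the study's methods the mice were male, the hippocampus was that of the operated side and each library pooled 3 samples of hippocampi, so the spread given below is between pools and not between animals. The question for these genes was how their RNA differed between I/R and sham.

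Total counts ranged from 37527226 to 39553637 over the I/R libraries and from 37493042 to 44788547 over the sham libraries. CPM are counts per 1000000 of the library size after scaling by TMM factors. The floor, taken as 3 counts, equalled 0.0659 to 0.0872 CPM. I/R replicate 1 was the I/R library farthest from sham for 8 of the 10 genes, and values without it are given below. I/R replicate 3 and sham replicate 1 had summed choroid plexus marker levels of 41.5 and 41.7 CPM, against 1607.5 to 4471.7 CPM in the other 4 libraries. The tissue label was checked with 6 markers of hippocampal principal cells, which summed to 763 to 806 CPM in sham and 217 to 463 CPM in I/R, and 5 of the 6 were called lower.

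Of the 10 genes, 7 were differentially expressed genes (DEGs) after I/R, called where edgeR's quasi-likelihood test gave a Benjamini-Hochberg adjusted p below 0.05 and the fold exceeded 1.2 in either direction. The share of all 18569 tested genes called by that rule was 41.8%, so DEGs were frequent in this tissue. P2ry2, P2ry6, Entpd1, Nt5e, P2ry1 and P2rx4 were higher in I/R, where 21.8% of all tested genes were called higher. Adora1 was lower, where 19.9% of all tested genes were called lower. This split depended on the scaling, since 52.3% of the calls were higher with TMM and 75.8% with library size only. P2rx7, P2ry14 and Adora2a were not called. The median log2 fold change of the 10 genes was 0.71, against 0.03 for all tested genes. In 8 of the 10 the I/R and sham libraries did not overlap in CPM, compared with 57.4% of all tested genes. For each of these 8, an exact two-sided permutation test of CPM gave p = 0.1, the smallest that 3 libraries against 3 allow. In bulk tissue, fewer cells of a type and less RNA per cell cannot be told apart, and this holds for every difference below.

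**Figure D1:**
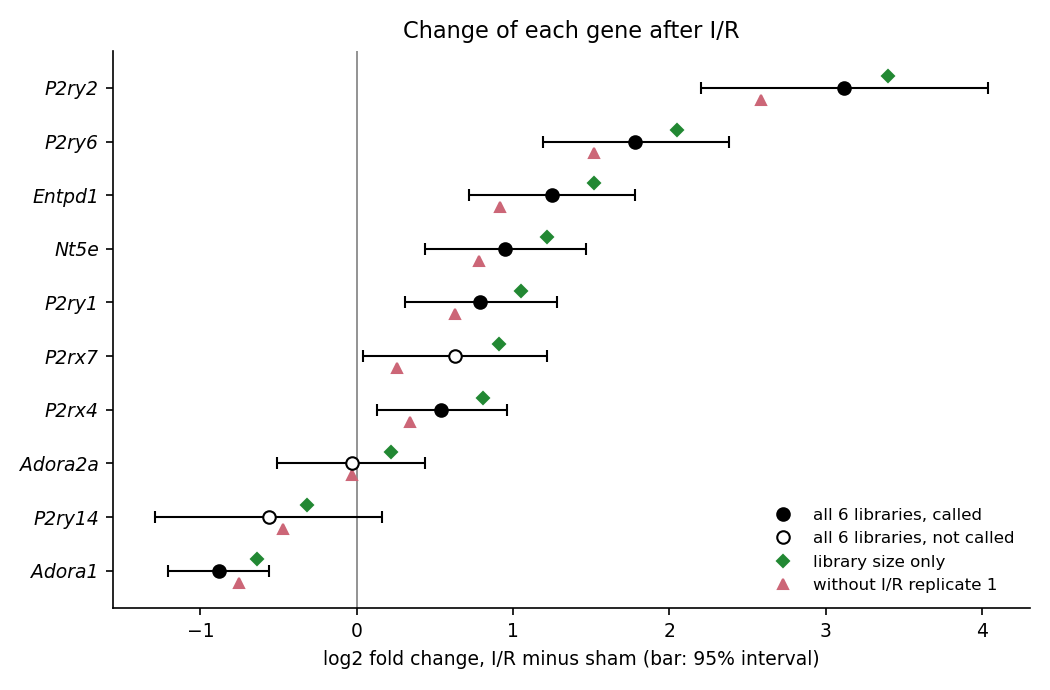
Log2 fold change (I/R minus sham) of each of the 10 genes on the x axis, with its 95% interval from the edgeR fit on all 6 libraries (circles, filled where called), the value with scaling by library size only (diamonds) and the value without I/R replicate 1 (triangles). P2ry2 lies farthest to the right at 3.12 and Adora1 farthest to the left at -0.88, and only Adora2a changes sign between the settings shown, from -0.03 to 0.22 with library size only.

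Sequences upstream of the transcription start were available in RefSeq (GRCm38.p6) for 8 of the 10 genes, with 15 windows in all, each from 250 bases before to 50 bases after a start. The 5′-most windows of the gene with the largest rise, of Entpd1, of the DEG that fell and of P2rx7, the neighbour of P2rx4, are printed so that the starts of genes with different changes can be set side by side. Capitals mark matches to any of the motifs AP-1 TGANTCA, NF-kappa B GGNNTTTCC, STAT TTCNNNGAA, PU.1 GAGGAAGT and the hypoxia response core ACGTG, searched on both strands.
P2ry2, chr7:101012004-101012303, minus strand: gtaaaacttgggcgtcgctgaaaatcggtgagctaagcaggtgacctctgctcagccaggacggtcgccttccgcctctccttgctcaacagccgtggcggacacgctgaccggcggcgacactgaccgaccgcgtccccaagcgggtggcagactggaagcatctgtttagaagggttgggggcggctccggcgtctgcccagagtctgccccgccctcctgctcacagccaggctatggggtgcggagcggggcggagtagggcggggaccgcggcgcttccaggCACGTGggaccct
Entpd1, chr19:40612116-40612415, plus strand: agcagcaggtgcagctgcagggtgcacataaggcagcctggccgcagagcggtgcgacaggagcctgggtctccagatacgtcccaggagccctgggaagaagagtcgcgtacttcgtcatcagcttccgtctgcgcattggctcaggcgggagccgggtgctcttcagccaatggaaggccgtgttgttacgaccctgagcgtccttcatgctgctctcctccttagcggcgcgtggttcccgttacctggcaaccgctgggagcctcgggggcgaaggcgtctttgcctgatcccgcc
P2rx7, chr5:122643677-122643976, plus strand: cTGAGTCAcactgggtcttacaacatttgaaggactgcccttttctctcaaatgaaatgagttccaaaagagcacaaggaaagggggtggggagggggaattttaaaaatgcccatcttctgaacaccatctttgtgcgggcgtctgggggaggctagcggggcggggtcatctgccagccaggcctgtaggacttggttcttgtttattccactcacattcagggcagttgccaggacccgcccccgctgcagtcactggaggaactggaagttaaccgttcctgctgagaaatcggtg
Adora1, chr1:134235408-134235707, minus strand: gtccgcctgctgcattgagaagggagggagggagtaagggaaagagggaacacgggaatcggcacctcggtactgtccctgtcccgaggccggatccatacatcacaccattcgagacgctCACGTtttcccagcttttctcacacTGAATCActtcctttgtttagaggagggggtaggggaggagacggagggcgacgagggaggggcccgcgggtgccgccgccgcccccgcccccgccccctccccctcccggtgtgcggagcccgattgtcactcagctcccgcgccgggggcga
The AP-1 letters were in 4 of the 15 windows, of 3 genes (P2rx7, P2ry14 and Adora1, of which P2ry14 alone has 4 windows), and in 7.81% of 32851 windows of this length in the whole table. The letters ACGTG were in 3 of the 15 windows, of 2 genes (P2ry2 and Adora1) and in 19.6% of all windows; in P2ry2 the palindrome CACGTG holds the core on both strands. A second window of P2rx7 held the PU.1 letters, found in 3.20% of all windows. The NF-kappa B letters were in a window of P2ry14 and in 5.82% of all windows, and the STAT letters, in 8.30% of all windows, were in no window of the 8 genes. Genes that were called higher (P2ry2), called lower (Adora1) and not called (P2rx7, P2ry14) all had a match to at least 1 of these motifs, and the windows of Entpd1, Nt5e, P2ry1 and P2rx4, all called higher, had none. A match is a description of the letters and not of binding.

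The P2X channels were represented by P2rx4 and P2rx7, which lie next to each other on the plus strand of chromosome 5 with 15.0 kb and 1 unnamed gene between them. P2rx4 (122466060 to 122488362 on the BALB/cJ assembly, the one the file's identifiers belong to) encodes a channel of microglia, neurons and endothelium. Replicates 1, 2 and 3 of I/R had 940, 513 and 624 counts of P2rx4, and those of sham had 461, 429 and 391. All 3 I/R libraries were above sham in CPM, at 16.4 ± 3.96 against 11.2 ± 0.635 (SD, n = 3 each), and I/R replicate 1 was the highest. The rise of P2rx4 was 0.54 on the log2 scale (SE 0.18, 95% interval 0.13 to 0.96), with an adjusted p of 0.042 by edgeR's quasi-likelihood test. This was the smallest rise among the 6 genes called higher, and 23.7% of all tested genes had a log2 fold change at or above it. Without I/R replicate 1 it was 0.34 and no longer called (edgeR adjusted p = 0.0583). With other libraries left out the call was lost too, except without I/R replicate 2 (0.67).

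P2rx7 (122403411 to 122451047) encodes the channel that opens at high ATP and acts on inflammasome activation in microglia and macrophages. The I/R libraries had 931, 419 and 449 counts of it, the sham libraries 370, 381 and 287. The groups did not overlap, but I/R replicates 2 and 3, at 10.5 and 11.2 CPM, stood close to the sham range of 8.34 to 9.48 CPM, and only I/R replicate 1, at 20.5 CPM, stood far above it. The log2 difference was 0.63 (SE 0.25, 95% interval 0.04 to 1.22), which did not pass the adjusted threshold (edgeR adjusted p = 0.0798). Without I/R replicate 1 the difference was 0.26, and without I/R replicate 2 it was 0.78 and called (edgeR adjusted p = 0.0495).

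Among the P2Y receptors, P2ry2 showed the largest change of the 10 genes. P2ry2, a receptor for ATP and UTP, lies on the minus strand of chromosome 7 (100975190 to 100990808). The sham libraries had only 35, 35 and 36 counts, and the I/R libraries 592, 264 and 189. Sham libraries were nearly equal, at 0.935 ± 0.0983 CPM (SD, n = 3), while the I/R libraries ranged from 4.73 to 13 CPM with a mean of 8.11 ± 4.34, a ratio of means of 8.68. The log2 fold change was 3.12 (SE 0.40, 95% interval 2.20 to 4.04), with an adjusted p of 0.00112 by edgeR's quasi-likelihood test. A log2 fold change at or above that value was found in 375 of the tested genes, 2.02% of them. Without I/R replicate 1 the rise was 2.59.

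P2ry6, a UDP receptor of microglia known for its part in phagocytosis, lies 32.7 kb from P2ry2 on the same strand (100914972 to 100942469), with no annotated gene between them. Its counts were 105, 175 and 118 in the sham libraries against 724, 401 and 400 in those of I/R. The groups were well apart, with I/R replicates 2 and 3 almost equal and above the highest sham library, at 4.31 CPM. P2ry6 rose by 1.78 on the log2 scale (SE 0.26), from 3.47 ± 0.809 to 12 ± 3.40 CPM (SD, n = 3 each; edgeR adjusted p = 0.00168), and by 1.52 without I/R replicate 1.

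P2ry1, an ADP receptor of astrocytes, endothelium and platelets, lies on the plus strand of chromosome 3 (57944632 to 57950819). Its 280, 181 and 185 counts in I/R compared with 133, 109 and 95 in sham. Every I/R library was above every sham library, and I/R replicate 1 was again the highest, at 6.15 CPM. The rise was 0.79 on the log2 scale (SE 0.21, 95% interval 0.31 to 1.28; edgeR adjusted p = 0.0185). The annotated gene Gm37035 covers part of P2ry1 on the opposite strand and had 0 to 25 counts in a library. Of the 50-base stretches of P2ry1 transcripts (GENCODE), 22.0% were shared, on either strand, with Gm37035. Whether the counting used the strand is not given, and the effect of this overlap on the P2ry1 counts was not tested. Without I/R replicate 1 the rise was 0.63 and still called. Without sham replicate 2 or 3 the adjusted p by edgeR rose to 0.0733 or 0.0723.

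P2ry14, the receptor for UDP-glucose, was the P2Y receptor of the set with no call. It lies on the minus strand of chromosome 3 (55981540 to 56021290), within Med12l on the plus strand. Sham libraries had 89, 74 and 98 counts against 61, 48 and 86 after I/R, and the groups overlapped because I/R replicate 3, at 2.15 CPM, was above sham replicate 2, at 1.82 CPM. The log2 difference was -0.56 (SE 0.31, 95% interval -1.29 to 0.16; edgeR adjusted p = 0.184), an interval that holds both 0 and -1. It was -0.89 without I/R replicate 3 (edgeR adjusted p = 0.0596) and -0.16 on the log2(FPKM + 1) scale. Med12l itself, with 1073 to 1200 counts per I/R library against 1750 to 2029 per sham library, was called lower (log2 fold change -0.85). Whether the counting used the strand is not given in the sources used here. Of 11148 stretches of 50 bases in P2ry14 transcripts (GENCODE), 1 was shared with another gene, which was Armt1 and not Med12l. Reads from Med12l RNA outside these transcripts' shared sequence, such as unspliced RNA, could still have been counted for P2ry14, and this was not tested.

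**Figure D2:**
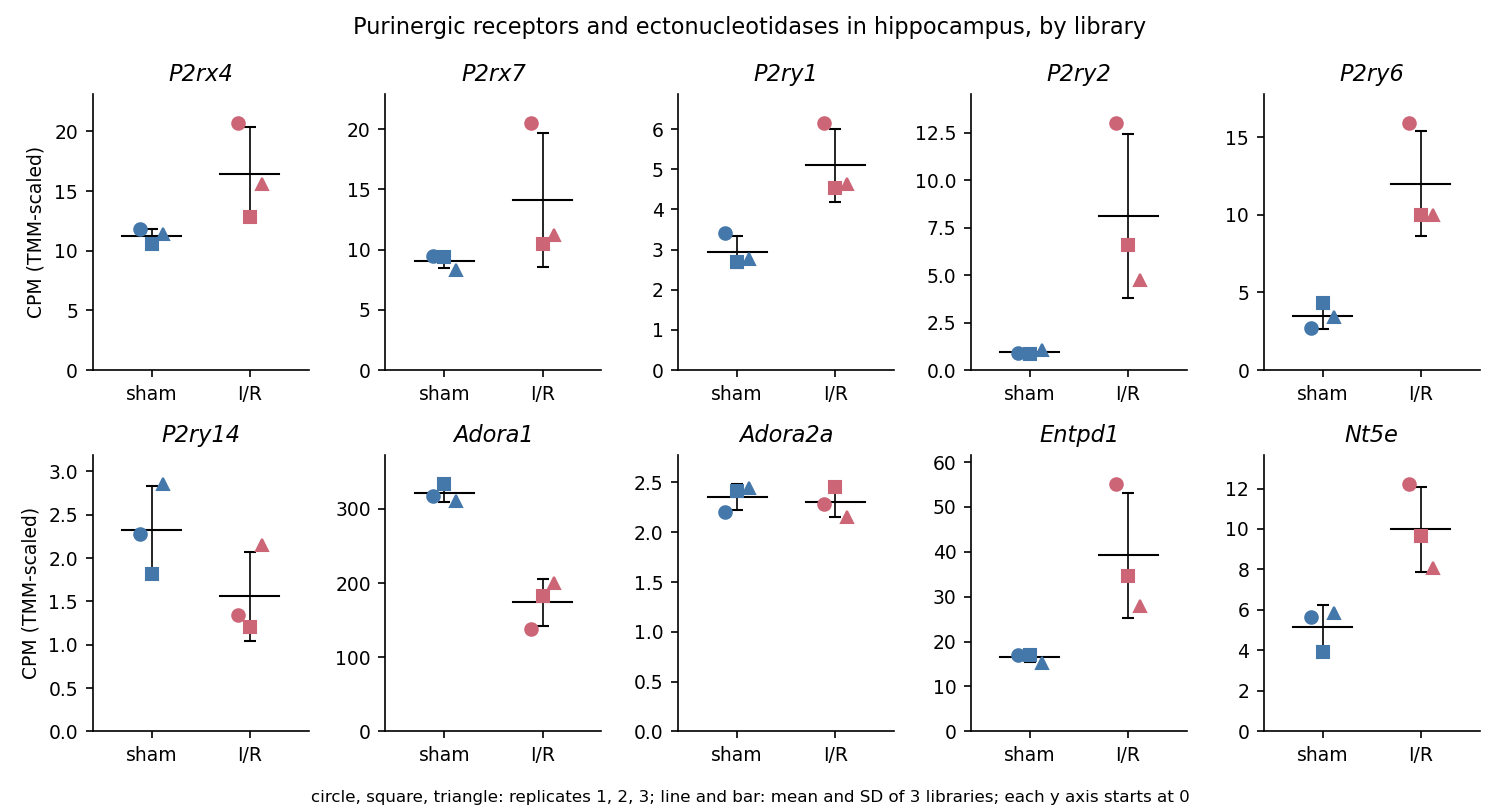
CPM (y axis, TMM-scaled, starting at 0 in each panel) of each gene in the 3 sham and the 3 I/R libraries, with circles, squares and triangles for replicates 1, 2 and 3 and the mean and SD of each group. I/R replicate 1 is the highest library for P2rx4, P2rx7, P2ry1, P2ry2, P2ry6, Entpd1 and Nt5e and the lowest for Adora1, whereas the groups overlap for P2ry14 and Adora2a.

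Of the adenosine receptors, Adora1 fell and Adora2a did not pass the test. Adora1 encodes the inhibitory A1 receptor, which is abundant in hippocampal neurons, and lies on the minus strand of chromosome 1 (132996304 to 133033078). It was by far the most counted gene of the set, with 12390, 13535 and 10705 counts in the sham libraries against 6296, 7293 and 8000 after I/R. The levels were 321 ± 11.3 CPM in sham and 174 ± 31.8 CPM in I/R (SD, n = 3 each), with no overlap and I/R replicate 1 the lowest at 138 CPM. Adora1 fell by 0.88 on the log2 scale (SE 0.14, 95% interval -1.21 to -0.56), with an adjusted p of 0.00254 by edgeR's quasi-likelihood test. It was -0.75 without I/R replicate 1. The end of Adora1 overlaps Mybph on the opposite strand, which had 2 to 22 counts in a library. Of the 50-base stretches of Adora1 transcripts, 17.4% were shared with Mybph. With the strand of counting not given, the effect of this overlap on the Adora1 counts was not tested. Neuron markers were lower in the same libraries: 5 of 5 tested were called lower, and their summed level was 1801.5 to 4422.3 CPM in I/R against 10252.1 to 10398.0 CPM in sham. I/R replicate 1 was lowest for both Adora1 and this sum, and the part of the neuron markers in the fall of Adora1 was not tested.

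Adora2a encodes the stimulatory A2a receptor, best known for its high level in striatum, and lies on the plus strand of chromosome 10 (73077734 to 73095564). Counts of 104, 98 and 86 after I/R were set against 86, 98 and 84 after sham surgery. The CPM values of the groups overlapped, at 2.30 ± 0.151 in I/R and 2.35 ± 0.130 in sham (SD, n = 3 each). The log2 difference was -0.03 with a 95% interval of -0.51 to 0.44 (edgeR adjusted p = 0.907), and with scaling by library size only it was 0.22. The exact two-sided permutation test gave p = 0.7 for Adora2a and 0.2 for P2ry14. Of 8 striatum markers, Drd1 (0.81) and Penk (0.72) were called higher and Ppp1r1b (-0.82) lower, and together they summed to 86.8 to 122 CPM in I/R and 102 to 133 CPM in sham.

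Both ectonucleotidases rose. Entpd1, on the plus strand of chromosome 19 (37978940 to 38109774), had 664, 696 and 526 counts in the sham libraries and 2502, 1385 and 1120 in those of I/R. All I/R libraries, at 28.0 to 55.0 CPM, were above the sham range of 15.3 to 17.1 CPM. The rise was 1.25 on the log2 scale (SE 0.23, 95% interval 0.72 to 1.78; edgeR adjusted p = 0.00425), and 9.31% of all tested genes had a log2 fold change at or above it. Without I/R replicate 1 it was 0.92 and still called.

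Nt5e, on the plus strand of chromosome 9 (85700626 to 85745406), had 221, 160 and 202 counts in the sham libraries and 557, 386 and 322 in those of I/R. The groups did not overlap, with 9.98 ± 2.11 CPM in I/R and 5.16 ± 1.06 in sham (SD, n = 3 each). Nt5e rose by 0.95 on the log2 scale (SE 0.22, 95% interval 0.44 to 1.47; edgeR adjusted p = 0.0108), and by 0.78 without I/R replicate 1. The RNA of Entpd1, which converts ATP and ADP to AMP, and of Nt5e, which converts AMP to adenosine, was higher in I/R. That of the A1 receptor was lower, as was that of Entpd2 and Entpd3 (below). Enzyme levels are not part of these data.

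Levels of different genes were compared per length, with the deposited FPKM (reads per kilobase of gene and per 1000000 counted reads). In sham, Adora1 had the highest FPKM of the set, at 82.1 ± 2.35, followed by Entpd1 at 14.2 ± 0.854, P2rx4 at 7.07 ± 0.449 and P2rx7 at 4.51 ± 0.307 (SD, n = 3 each). These 4 did not overlap with each other in any library. P2ry6 at 1.64 ± 0.370 and Nt5e at 1.39 ± 0.295 FPKM overlapped, as did Nt5e and P2ry14 at 1.03 ± 0.233, and P2ry14, Adora2a at 0.849 ± 0.044 and P2ry1 at 0.835 ± 0.117. P2ry2 had the lowest FPKM in sham, at 0.333 ± 0.0363. In I/R the mean FPKM kept the same genes in the first 5 places, with Adora1 at 52.8 ± 7.56 and Entpd1 at 40.9 ± 16.7, and P2ry2 was in the sixth place at 3.50 ± 2.05. The FPKM of Entpd1 was above that of Adora1 in I/R replicate 1 (59.7 against 44.6). The lengths behind these FPKM values were shorter than the gene lengths listed in the same table for 8 of the 10 genes, such as 1059 against 4221 bases for Entpd1 and 2066 against 7787 bases for P2ry14. With CPM per kilobase of the listed length, the first 6 places in sham were the same, and P2ry14 instead of P2ry2 was the last, whereas in I/R P2ry6 was in the third place, ahead of P2rx4 and P2rx7.

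To compare genes of a subfamily without library scaling, the log2 ratio of the counts of a pair was taken within each library for 5 pairs. P2ry2 had 0.263 to 0.379 counts per count of P2ry1 in sham and 1.02 to 2.11 in I/R, where the lowest ratio, that of replicate 3, rested on 189 and 185 counts. This compares the ratio between libraries and not the levels of the genes, whose lengths differ. The P2ry14 to P2ry6 ratio was 0.423 to 0.848 in sham and 0.0843 to 0.215 in I/R, a log2 difference of -2.37. Adora2a had 0.00694 to 0.00785 counts per count of Adora1 in sham and 0.0108 to 0.0165 in I/R, a log2 difference of 0.87. In these 3 pairs the groups did not overlap, with p = 0.1 each by the exact two-sided permutation test, the smallest possible, and 0.167 after Benjamini-Hochberg adjustment over the 5 pairs. The P2rx7 to P2rx4 ratio overlapped between the groups, with log2 values of -0.26 ± 0.23 in I/R and -0.31 ± 0.14 in sham (exact permutation p = 0.9). The Nt5e to Entpd1 ratio also overlapped, with log2 values of -1.94 ± 0.20 in I/R and -1.70 ± 0.38 in sham (exact permutation p = 0.4). Its log2 difference of -0.24 became -0.45 without sham replicate 2, where the groups no longer overlapped and the exact permutation p was the smallest possible, 0.1, and -0.08 without sham replicate 3.

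**Figure D3:**
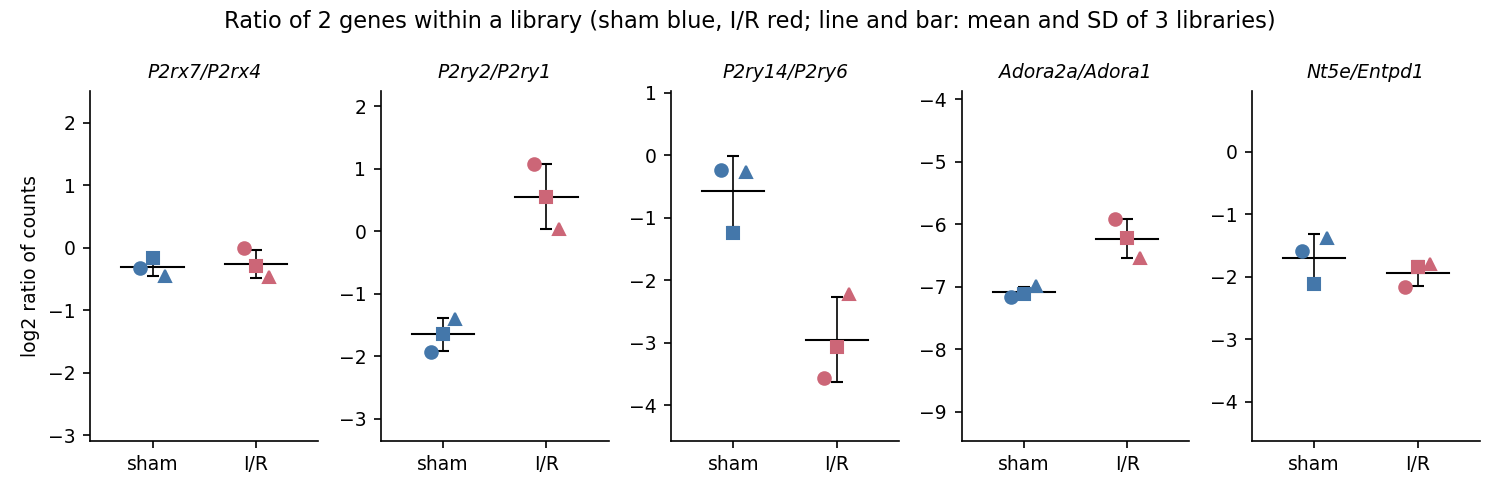
Log2 ratio of the counts of 2 genes within a library (y axis, the same span in each panel) for 5 pairs, with circles, squares and triangles for replicates 1, 2 and 3 of sham and I/R and the mean and SD of each group. The P2ry2 to P2ry1 ratio lies below 0 in all sham libraries and above 0 in all I/R libraries, whereas the P2rx7 to P2rx4 and Nt5e to Entpd1 ratios overlap.

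The other genes of purinergic signalling were taken from 6 lists by role. Of 51 symbols, 45 were found by name and 38 were tested, of which 21 were called, 10 higher and 11 lower. This was 55.3%, beside 41.8% of all tested genes, and their median log2 fold change was -0.20. Among the other P2X receptors, 1 of 4 tested was called. P2rx5, an ATP-gated channel, had 144, 116 and 133 counts in the sham libraries and 357, 215 and 202 in those of I/R, and rose by 0.81 on the log2 scale (edgeR adjusted p = 0.0246). The rest ranged from -0.34 to 0.35 on the log2 scale.

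Of the other P2Y receptors, P2ry12 and P2ry13, both ADP receptors of microglia, were tested. P2ry12 had 973, 951 and 1003 counts in the sham libraries against 231, 334 and 437 after I/R, and fell by 1.67 on the log2 scale (edgeR adjusted p = 0.00209). It lies 63.1 kb from P2ry14, and P2ry13 lies between them. P2ry13 had a log2 difference of -0.69 and was not called (edgeR adjusted p = 0.0574). It was called without I/R replicate 1 (-0.48) and without I/R replicate 3 (-1.02). Both genes, like P2ry14, lie within Med12l on the opposite strand, and whether the counting used the strand is not given. Stretches shared with Med12l were not searched for P2ry12 and P2ry13. The P2Y receptors differed in direction after I/R, with P2ry1, P2ry2 and P2ry6 called higher and P2ry12 called lower. Among the other adenosine receptors, Adora3 (A3 receptor) had 20, 20 and 14 counts in the sham libraries against 94, 69 and 35 after I/R, and rose by 1.72, whereas Adora2b, at 0.13 on the log2 scale, was not called.

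The list of ectonucleotidases and related genes outside Entpd1 and Nt5e (the ectonucleotidase list) had 10 tested genes, with 3 called higher and 4 called lower. Where the products of these genes act in the cell was not measured. Acpp, whose product is an acid phosphatase that also hydrolyses AMP, had 5, 6 and 8 counts in the sham libraries against 177, 111 and 87 after I/R. Its rise of 4.11 on the log2 scale (SE 0.39, adjusted p = 0.000455 by edgeR) was larger than that of any of the 10 genes above. Enpp1 and Enpp3, nucleotide pyrophosphatases, were called higher, with 290 to 643 counts after I/R against 153 to 191 after sham surgery for Enpp1 and a log2 rise of 1.44 for Enpp3. Entpd6 fell by 0.84, and Entpd2, Entpd3 and Entpd5, named although they were not among the 4 largest changes of the list, fell by 0.74, 0.84 and 0.33. Of the tested genes of the Entpd family (Entpd1, Entpd2, Entpd3, Entpd5, Entpd6 and Entpd7), Entpd1 alone was called higher. Enpp2 followed the choroid plexus markers, with 4223 and 5241 counts in I/R replicate 3 and sham replicate 1 and 30461 to 62046 in the other libraries.

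For nucleotide release, 1 of 7 tested genes was called higher and 3 were called lower. The pannexin Panx2 fell by 1.44, from 5811, 6477 and 5227 counts in the sham libraries to 1947, 2370 and 2680 after I/R. The astrocyte connexins Gja1 and Gjb6 fell by 0.70 and 0.69, and Gjb2 rose by 1.21, although I/R replicate 3 at 9.15 CPM lay within the sham range of 6.74 to 9.43 CPM. The pannexin Panx1 was not called, at a log2 value of -0.03. Among 13 tested genes of adenosine uptake and conversion, 4 were called higher and 3 lower. Ada, adenosine deaminase, rose by 1.67 (51, 53 and 64 counts in sham against 241, 162 and 195 in I/R). Ampd3, an AMP deaminase, rose by 1.61, Pnp, purine nucleoside phosphorylase, by 0.94 and the nucleoside transporter Slc29a1 by 0.59. Called lower were Ampd2 (-0.49), Slc29a2 (-0.39) and Nt5c2 (-0.34), named although not among the 4 largest changes of the list. Adk, adenosine kinase, had a log2 difference of -0.25 and was not called. Among the genes named from the lists, some calls depended on single libraries. P2rx5 was not called without sham replicate 1, 2 or 3 (0.68 to 0.89), Enpp3 without I/R replicate 1 or 2 or sham replicate 1 or 3 (1.18 to 1.40), Gjb2 without any library other than I/R replicate 3 (0.76 to 1.28), and Slc29a1 without I/R replicate 2 or sham replicate 1 or 3 (0.51 to 0.56). The called genes of the ectonucleotidase list were 4 instead of 7 without I/R replicate 2 or sham replicate 3. Those of adenosine uptake and conversion were 4 instead of 7 without sham replicate 1.

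**Figure D4:**
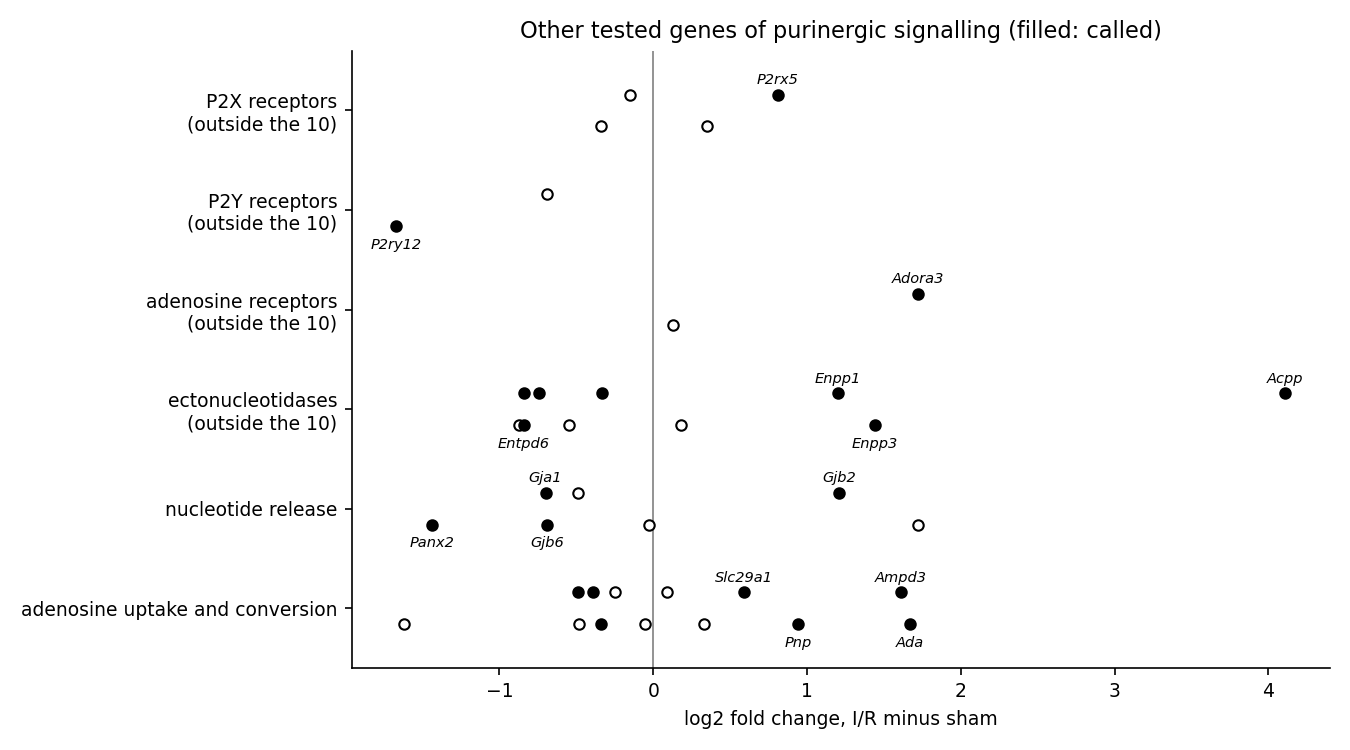
Log2 fold change (I/R minus sham, x axis) of the 38 other tested genes of purinergic signalling in 6 lists by role, filled where called by edgeR and named for the called genes with up to 4 of the largest changes a list. Acpp lies farthest to the right at 4.11 and P2ry12 farthest to the left of the called genes at -1.67.

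Markers of cell types that carry these receptors and enzymes differed between the same libraries. Of 9 tested microglia markers, 4 were called higher and 2 lower, and their sum was 327 to 489 CPM in I/R and 259 to 303 CPM in sham. Fcrls rose most, with 62.2 to 118 CPM in I/R and 15.8 to 20.5 CPM in sham. Called lower were Tmem119 (-0.68) and Siglech (-1.91), so the sum does not stand for each marker. Itgam was listed at 0 in all libraries. Of 7 tested monocyte and macrophage markers, 6 were called higher, with sums of 39.9 to 77.9 CPM in I/R and 12.4 to 16.5 CPM in sham. Neutrophil markers summed to 40.3 CPM in I/R replicate 1 and to 9.86 and 10.2 CPM in the other I/R libraries, against 4.13 to 5.71 CPM in sham, with 4 of 5 called higher and Ly6g at or below the floor in all libraries. All 6 endothelial markers were called higher, with sums of 321 to 539 CPM in I/R and 188 to 192 CPM in sham. Of 7 astrocyte markers 2 were called higher and 4 lower, and their sums overlapped. Meningeal fibroblast markers, of which 3 of 5 were called higher and 1 lower, summed to 114 to 179 CPM in I/R, again highest in replicate 1, and to 75.0 to 93.4 CPM in sham. Dcn had the highest level of these 5, with 65.8 to 115 CPM in I/R and 42.2 to 47.4 CPM in sham. Of 5 pericyte markers 2 were called higher and 2 lower, with sums of 165 to 180 CPM in I/R and 183 to 197 CPM in sham. The T cell markers summed to 4.03 to 4.73 CPM in I/R and 1.28 to 2.51 CPM in sham; Lck was called higher (1.21), Trac was tested and not called, and Cd3e, Cd3g and Cd8a were at or below the floor in all libraries. I/R replicate 1 had the highest microglia, monocyte, neutrophil, endothelial and meningeal fibroblast sums and was also highest for P2rx4, P2rx7, P2ry1, P2ry2, P2ry6, Entpd1 and Nt5e, and the part of these cell types in the rise of the genes was not tested.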

How the data were processed

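RNA-seq libraries of 3 sham and 3 I/R pools of mouse hippocampus were analysed, with groups and replicate numbers from the titles. The authors aligned reads with TopHat2 to an Ensembl genome and counted them per gene with HTSeq (the study's methods), and they deposited these raw read counts. The submitters' processing notes also name Bowtie 0.12.2. The gene identifiers are mostly of the BALB/cJ strain annotation (40303 of 41386), whereas the mice were C57BL/6 (C57BL/6J in the methods). The deposited FPKM values are the authors' counts scaled for the length of a gene and for library depth. The table's columns of p-values hold the authors' own comparison and were not used. The table had 41390 lines, of which 4 were split and were rejoined, and genes without a name held 4.24% to 4.74% of the counts.

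The fit used R 4.3.3 and its package edgeR 4.0.16 (filterByExpr, TMM factors, robust glmQLFit, glmQLFTest) on all 6 libraries without covariates, with Benjamini-Hochberg adjustment over 18569 genes. The rule for a DEG was an adjusted p below 0.05 together with a fold above 1.2 in either direction. CPM are TMM-scaled, and the SE is the log2 fold change divided by the square root of F. The fit was also run on simulated counts with far fewer changed genes than were called here. That run therefore does not bear on the choice of scaling. The total count per library sets the precision, and the floor of 3 counts covers counting error only. The 10 genes and the lists were chosen with earlier results of these data known. All 10 genes were named, and of each list the called genes with up to 4 of the largest changes. 45 of 51 pathway symbols matched by name, and Entpd4, Lrrc8a, Slc28a2, Dpp4, Ahcy and Acp3 (matched as Acpp) did not, nor did the markers Ly6c2 and Map2. Alternatives used DESeq2 1.42.0, limma 3.58.1, other scalings, filters and call rules, FPKM with a pseudocount of 1 or 0.1, each library left out, the replicate number as a block, and the choroid plexus markers as a covariate or a choice of libraries.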

Additional observations from a re-analysis of the deposited data

How the results depend on the processing

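The direction and call of P2ry2, P2ry6 and Entpd1 were the same in all 20 alternatives, with log2 fold changes of 1.66 to 3.40, 1.52 to 2.05 and 0.92 to 1.52. The 1.66 of P2ry2 is on the log2(FPKM + 1) scale, where the added 1 exceeds its mean sham FPKM of 0.333 and so shrinks the difference. With log2(FPKM + 0.1) it was 2.91. With a fold over 2, 2760 genes, 3 of the 10 genes and 9 of the other pathway genes were called, and P2rx4 (0.54), P2ry1 (0.79), Nt5e (0.95) and Adora1 (-0.88) were not. P2rx4 also lost its call with limma-voom (0.53), with the choroid plexus covariate (0.53) and in the 4 libraries rich in choroid plexus markers (0.60). P2rx7 gained one with library size only (0.91), with log2(FPKM + 0.1) (0.81) and with an unadjusted p (0.63). Adora2a reversed with library size only (0.22), log2(FPKM + 1) (0.11) and log2(FPKM + 0.1) (0.20). With each library left out in turn, log2 fold changes ranged from 0.34 to 0.67 for P2rx4, called only without I/R replicate 2, from 0.26 to 0.78 for P2rx7, called only without I/R replicate 2, from 0.63 to 0.90 for P2ry1, and from -0.89 to -0.40 for P2ry14, which was called in none of the 20 alternatives. The P2rx7 to P2rx4 log2 ratio difference of 0.05 ranged from -0.07 to 0.16 with each library left out and reversed to -0.07 without I/R replicate 1 and -0.02 without sham replicate 3. The cause of these changes was not tested. Between 5 and 8 of the 10 genes were called in these settings other than the fold over 2.

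Libraries with the same replicate number did not deviate together from their group means (correlations of -0.0967, 0.0556 and -0.184). This gave no sign of pairing by number, but deviations from means of 3 libraries cannot exclude it. The largest correlation, 0.267, was between I/R replicate 3 and sham replicate 1, the 2 libraries low in choroid plexus markers. With the replicate block, 6332 genes and 7 of the 10 genes were called. Scaling by library size only moved the median over the tested genes from 0.03 to 0.28 (log2) and the share of calls that were higher from 52.3% to 75.8%, and the FPKM fits gave shares of 75.0% and 75.5%. P2ry13 was called with DESeq2, limma-voom, no count filter, an unadjusted p, the choroid plexus covariate and the 4 libraries. P2ry14 and Adora2a had 48 to 104 counts in a library. Their 95% intervals, -1.29 to 0.16 and -0.51 to 0.44, come from the main fit and do not cover the choice of scaling. For P2ry14, which lies within Med12l, the interval also does not cover the unknown strand of counting. With library size only, the log2 differences were -0.32 and 0.22.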

Other observations

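Some genes of purinergic signalling were counted too rarely to pass the count filter of the edgeR fit. P2ry4, a receptor for UTP, had 1, 0 and 0 counts in the sham libraries against 9, 8 and 4 after I/R. Slc28a1, a concentrative nucleoside transporter, had 0 counts in each sham library against 2, 2 and 10 after I/R. P2ry10 had 0 to 2 counts in a library. Without the filter, the edgeR adjusted p was 0.0657 for P2ry4, 0.0644 for Slc28a1 and 0.259 for P2ry10, and DESeq2 gave adjusted p values of 0.0426 for P2ry4 and 0.0795 for Slc28a1. The DESeq2 call of P2ry4 rests on at most 9 counts in a library.

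Slc28a3, another concentrative nucleoside transporter, had 1 and 7 counts in I/R replicate 3 and sham replicate 1, the 2 libraries low in choroid plexus markers, and 12 to 44 counts in the other libraries. Slc17a9, the vesicular nucleotide transporter, had 10, 4 and 13 counts in the sham libraries against 52, 16 and 34 after I/R, with a log2 difference of 1.72 that did not pass the threshold (edgeR adjusted p = 0.0505).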
